A study of Mus musculus with 7 samples.

Results

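The 10 genes described here encode transcription factors and repressors of the circadian clock, under the names Clock, Npas2, Per1, Per2, Per3, Cry1, Cry2, Dbp, Tef and Hlf. They are a chosen part of the clock genes on the study's arrays, which also cover others such as Arntl. Probes were matched to them by gene name, and all their probes were read. The array holds 12 probes for them (2 each for Per1 and Dbp) among 55681 non-control probes, and 7 of the 10 had a probe bright enough to be tested, among 15951 named genes that did. Gene expression was measured by microarray in whole liver of mice on a C57BL/6J background at the age of 4 weeks, with 1 array per animal and no pooling. The Rbpj-/- group consisted of 3 AlfpCre+ Rbpj flox/flox mice (-/-_N3, -/-_N5 and -/-_2866), in which the Cre driver removes Rbpj, the DNA-binding partner of Notch receptors, from the cell lineage that gives rise to hepatocytes and bile duct cells, and which become cholestatic. The Rbpj+/+ group consisted of 4 AlfpCre- Rbpj flox/flox mice (+/+_1155, +/+_1156, +/+_1024 and +/+_991), so both groups carry the floxed allele and the controls carry no Cre. The mice were untreated and kept free of specific pathogens. The hour of day at which each liver was taken, feeding before it and shared litters are not given in the sources used here. The p-values set the genotype difference against the spread between these animals, whatever the source of that spread. A difference in hour, feeding or litter between the groups could not be told apart from genotype.

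In the liver, CLOCK or its paralog NPAS2 pairs with BMAL1 (encoded by Arntl) and binds E-box motifs in the genes of its own repressors, the PER and CRY proteins, which then shut the pair down until they are degraded. The same pair drives Dbp, Tef and Hlf, which encode the PAR bZIP factors that bind D-box motifs and carry the rhythm to genes of metabolism and detoxification. As textbook background, Dbp and the Per genes in liver cycle roughly opposite to Arntl and Npas2 over the day, with Dbp among the transcripts of the widest daily range.

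The promoter windows show which of these binding motifs lie next to the genes. RefSeq windows from 250 bases before to 50 after each annotated start were found for 9 of the 10 genes (13 windows, build GRCm38.p6, all searched on both strands). The E-box CACGTG lay in 1 of the 2 windows of Per1 (166 bases before the start), in that of Cry1 (60 bases before) and in both of Tef (127 and 138 bases before), against 7.15% of all 32851 windows. The windows of Dbp, Clock, Npas2, Cry2, Per3 and Hlf held no match to it. The D-box, searched as TTATGTAA or TTACGTAA, lay 205 and 158 bases before the start of Per3 and in 1.06% of all windows. The cAMP response element TGACGTCA lay 9 bases before the start of Hlf and in 1.79% of all windows. The letters TGGGAA, the core that RBPJ binds, lay in windows of Npas2, Cry2, Per1, Hlf and Tef and in 25.6% of all windows. These matches are descriptions of letters and not sites shown to be bound. The windows of Per1, Per3 and Hlf are shown because they carry those motifs beside genes described below, and that of Ciart, a clock repressor outside the 10 genes, because its values over the animals were the closest to those of Dbp. Capitals mark the motif matches on either strand, and each window is printed 5′ to 3′ along its gene.
Per1, chr11:69098699-69098998, plus strand: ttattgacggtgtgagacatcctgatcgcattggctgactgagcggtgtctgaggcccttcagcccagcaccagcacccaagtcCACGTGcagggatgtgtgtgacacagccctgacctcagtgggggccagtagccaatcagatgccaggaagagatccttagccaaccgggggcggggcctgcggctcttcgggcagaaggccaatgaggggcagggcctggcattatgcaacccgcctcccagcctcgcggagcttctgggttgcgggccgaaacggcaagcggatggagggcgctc
Per3, chr4:151044616-151044915, minus strand: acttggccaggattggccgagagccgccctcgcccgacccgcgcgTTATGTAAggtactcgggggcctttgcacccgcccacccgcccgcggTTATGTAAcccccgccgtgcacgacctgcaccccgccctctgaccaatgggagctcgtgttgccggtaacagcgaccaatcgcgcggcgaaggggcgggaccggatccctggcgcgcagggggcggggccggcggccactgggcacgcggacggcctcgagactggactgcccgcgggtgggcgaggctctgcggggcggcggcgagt
Hlf, chr11:90390868-90391167, minus strand: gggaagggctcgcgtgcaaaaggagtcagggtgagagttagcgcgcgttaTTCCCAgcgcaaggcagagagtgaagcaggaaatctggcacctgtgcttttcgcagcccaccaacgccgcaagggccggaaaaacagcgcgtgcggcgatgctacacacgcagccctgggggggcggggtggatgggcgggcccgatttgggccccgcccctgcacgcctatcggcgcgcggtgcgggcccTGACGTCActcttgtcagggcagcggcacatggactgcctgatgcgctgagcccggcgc
Ciart, chr3:95882179-95882478, minus strand: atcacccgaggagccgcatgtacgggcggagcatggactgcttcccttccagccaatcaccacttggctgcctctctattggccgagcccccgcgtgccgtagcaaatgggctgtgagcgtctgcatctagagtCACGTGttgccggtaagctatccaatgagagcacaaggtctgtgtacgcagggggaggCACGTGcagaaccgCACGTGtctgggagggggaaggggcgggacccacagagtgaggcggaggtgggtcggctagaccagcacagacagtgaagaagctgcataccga

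Between the genotypes, Per1 rose and Hlf fell, and Clock, Per2, Cry2, Dbp and Tef did not pass the test. The values below are log2 intensities relative to the 75th percentile of their array, called normalised log2 values, and genotypes were compared with limma at an adjusted p below 0.1 over all tested probes. Per1 was thus 1 of 7 tested genes that were higher in Rbpj-/- liver, against 16.2% of all tested genes, and Hlf 1 of 7 that were lower, against 17.3%. Every Rbpj-/- animal lay on one side of every control for 1 of the 7 (Hlf), as for 36.0% of all tested genes. Whole liver was measured, so fewer cells of a type and less RNA per cell cannot be told apart. The median log2 fold change of the 7 genes was 0.10 and that of all tested genes -0.08.

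**Figure D1:**
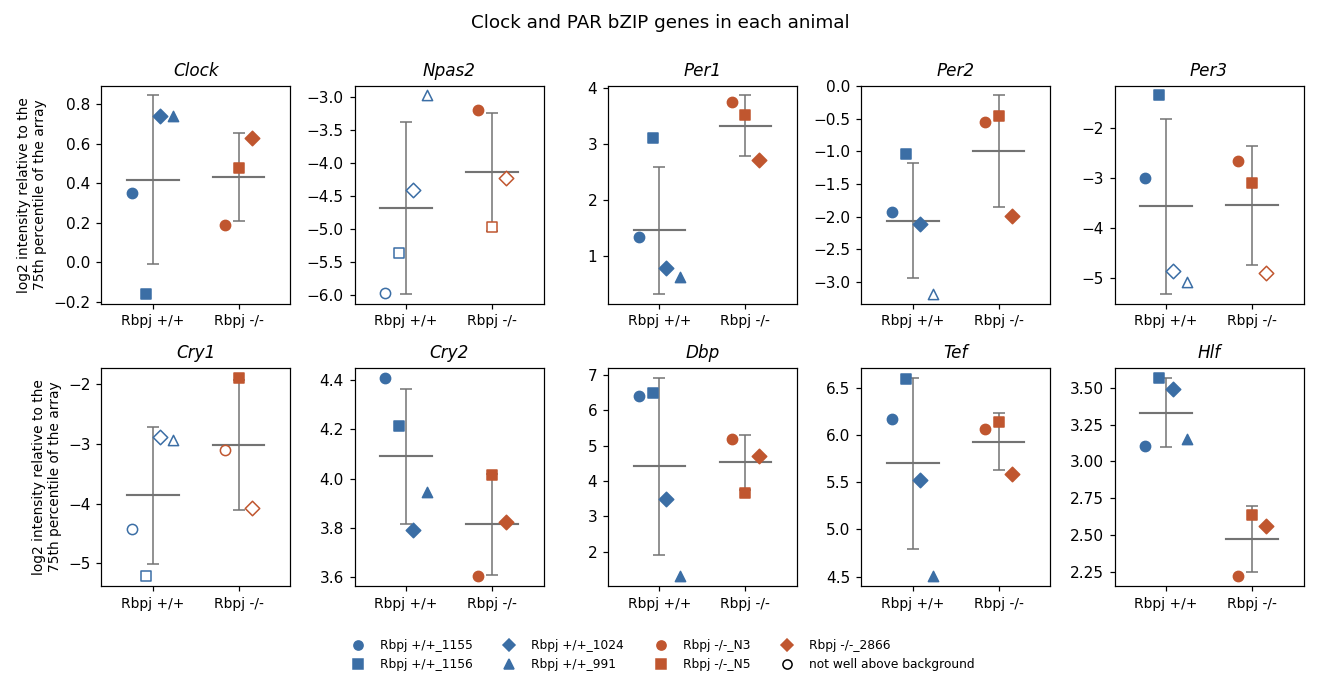
Normalised log2 value (log2 intensity relative to the 75th percentile of the array) of the 10 clock and PAR bZIP genes in each of the 4 Rbpj+/+ and 3 Rbpj-/- animals, with 1 symbol per animal, open where the probe was not well above background; horizontal lines are means and bars are SD, and each panel has its own vertical scale. The Hlf panel has no overlap between genotypes, and the Dbp panel has the Rbpj+/+ animals between 1.31 and 6.50.

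Among the activators, Clock, which encodes one partner of BMAL1, had normalised log2 values of 0.35, -0.16, 0.74 and 0.74 in Rbpj+/+ animals +/+_1155, +/+_1156, +/+_1024 and +/+_991 and of 0.19, 0.47 and 0.63 in Rbpj-/- animals -/-_N3, -/-_N5 and -/-_2866. The Rbpj-/- animals lay within the range of the controls, and values of single animals are given in this same order throughout. The log2 fold change was 0.01 (SE 0.26, 95% interval -0.58 to 0.61, limma adjusted p = 0.975). Npas2, the paralog of Clock, was well above background in 0 of 4 Rbpj+/+ animals and in 1 of 3 Rbpj-/- animals (-/-_N3), and was not tested. Array -/-_N3 had the highest share of probes well above background (64.9%). The intensity of Npas2 on it, 15.6, lay below the median of that array, 29.6.

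Per1 encodes a PERIOD repressor that also responds acutely to hormones and to cAMP. Its tested probe (chr11:68923364-68923423 in the array's mm9 annotation, plus strand) gave intensities of 258, 732, 98.3 and 115 in the 4 Rbpj+/+ animals and of 1908, 1487 and 777 in the 3 Rbpj-/- animals. The normalised log2 values were 1.33, 3.1, 0.77 and 0.62 against 3.74, 3.52 and 2.72. Animal +/+_1156 stood apart from the other controls and lay above Rbpj-/- animal -/-_2866, so the genotypes overlapped. The difference was 1.87 on the log2 scale (SE 0.56, 95% interval 0.59 to 3.15), a 3.66-fold rise, with an adjusted p of 0.043 from limma and p = 0.086 in the exact two-sided permutation test over the 35 ways of dividing the animals, whose smallest possible p is 0.029. The call was lost without control +/+_1024 (adjusted p = 0.112, limma), without -/-_N3 (adjusted p = 0.131) and without -/-_N5 (adjusted p = 0.132), with log2 fold changes of 1.64, 1.66 and 1.77. Without +/+_1156 the log2 fold change was 2.42. The second Per1 probe, annotated to another transcript, was well above background on 1 of 4 and 1 of 3 arrays and was not tested.

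The other PERIOD genes, which encode partners of PER1 in the repressor complex, were near background on some arrays. Per2 had normalised log2 values of -1.93, -1.03, -2.11 and -3.18 in the 4 Rbpj+/+ animals, the last not well above background, and of -0.55, -0.46 and -1.98 in the 3 Rbpj-/- animals. Animals -/-_N3 and -/-_N5 lay above all controls and -/-_2866 among them. The log2 fold change of 1.07 (SE 0.52, 95% interval -0.12 to 2.25) did not pass (limma adjusted p = 0.169), and it passed when +/+_1156 (adjusted p = 0.073) or -/-_2866 (adjusted p = 0.080) was left out. Per3 was well above background in +/+_1155, +/+_1156, -/-_N3 and -/-_N5 and not in +/+_1024, +/+_991 and -/-_2866, and it was not tested. Its normalised log2 values were -3.00 and -1.35 in +/+_1155 and +/+_1156, and -2.66 and -3.11 in -/-_N3 and -/-_N5, and the measured values of both genotypes overlapped.

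Of the cryptochromes, the stable partners of PER in the repressor complex, Cry2 had normalised log2 values of 4.41, 4.21, 3.79 and 3.95 in the 4 Rbpj+/+ animals and of 3.61, 4.01 and 3.83 in the 3 Rbpj-/- animals. The genotypes overlapped, and the log2 fold change was -0.28 (SE 0.22, 95% interval -0.76 to 0.21, limma adjusted p = 0.377). Cry1 was well above background in 0 of 4 Rbpj+/+ animals and in 1 of 3 Rbpj-/- animals (-/-_N5), and like Npas2 it was not tested and is given no fold.

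Dbp, the PAR bZIP factor named for the albumin promoter, varied far more between control animals than between genotypes. Its brighter probe (chr7:52965322-52965381 in mm9, plus strand) gave intensities of 8749, 7717, 641 and 186 in the 4 Rbpj+/+ animals and of 5188, 1659 and 3117 in the 3 Rbpj-/- animals. The normalised log2 values were 6.41, 6.50, 3.48 and 1.31 against 5.19, 3.68 and 4.72. Animals +/+_1155 and +/+_1156 were the highest of all 7, +/+_1024 and +/+_991 the lowest, and the Rbpj-/- animals lay between them. The 4 controls spanned 36.3-fold after normalisation and the 3 Rbpj-/- animals 2.85-fold. The second probe, 60 bases long like the first and on the same transcript, gave the same order of the 4 controls, 5.89, 6.06, 2.99 and 0.97, with a span of 34.0-fold. The log2 fold change was 0.10 (SE 1.16, limma adjusted p = 0.957), and its 95% interval of -2.52 to 2.72 leaves room for differences of either sign that are larger than that of Per1. It was -0.94 without +/+_991 and 0.79 without +/+_1156.

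Tef, the PAR bZIP factor first found in the pituitary, followed the same order with a narrower span. Its normalised log2 values were 6.17, 6.59, 5.52 and 4.51 in the 4 Rbpj+/+ animals and 6.06, 6.14 and 5.59 in the 3 Rbpj-/- animals. The Rbpj-/- animals lay within the range of the controls, which was 4.24-fold. The log2 fold change was 0.23 (SE 0.45, 95% interval -0.78 to 1.24, limma adjusted p = 0.734).

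Hlf, the hepatic leukemia factor, was the PAR bZIP gene that fell. Its normalised log2 values were 3.11, 3.57, 3.49 and 3.15 in the 4 Rbpj+/+ animals and 2.22, 2.64 and 2.56 in the 3 Rbpj-/- animals. All 3 Rbpj-/- animals were below all 4 controls, and the controls differed by no more than 1.38-fold. Hlf fell by 0.86 on the log2 scale (SE 0.21, 95% interval -1.33 to -0.38), a 1.81-fold decrease, with a limma adjusted p of 0.021 and p = 0.029 in the exact permutation test, the smallest it can give. Before each array was scaled, the intensities were 883, 1015, 645 and 665 against 664, 807 and 696 and overlapped, while the 75th percentiles of the arrays were between 57.5 and 103 in Rbpj+/+ and between 118 and 143 in Rbpj-/- animals. After quantile normalization, Hlf fell by 0.80 on the log2 scale (limma adjusted p = 0.047). Hepatocyte markers moved in the same direction, with 8 of 12 lower and 0 higher and a median log2 fold change of -0.68, and a mean normalised log2 level of 8.15 to 8.79 in Rbpj+/+ and of 7.83 to 8.26 in Rbpj-/- animals. Of all tested genes 17.3% were lower and 16.2% higher. Under quantile normalization 2 of the 12 markers were lower and 1 higher, and under normexp background correction 8 were lower and 1 higher. Their part in the fall of Hlf was not tested.

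**Figure D2:**
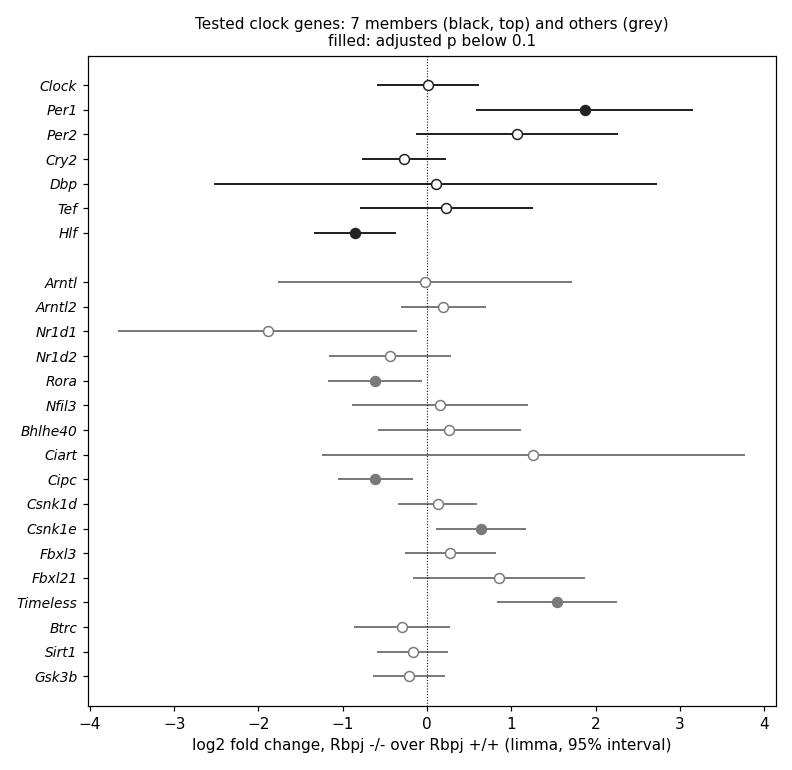
Log2 fold change of Rbpj-/- over Rbpj+/+ liver with its 95% interval (limma) for the 7 tested clock and PAR bZIP genes (black) and for other tested clock genes (grey); filled symbols have an adjusted p below 0.1. Per1 (1.87) and Hlf (-0.86) are filled, and Dbp has the widest interval of the 7 (-2.52 to 2.72).

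Paralogs were compared within each array, to see whether one differed from the other in its response. Of 8 pairs, the difference between Per1 and Per3 did not overlap between genotypes, with normalised log2 differences of 4.33, 4.45, 5.63 and 5.70 in Rbpj+/+ and of 6.40, 6.62 and 7.61 in Rbpj-/- animals. Its mean was 1.85 higher in Rbpj-/- liver (SE 0.52, exact permutation p = 0.029, 0.229 after Benjamini-Hochberg adjustment over the 8 pairs), and Per3 was not well above background on 3 of the 7 arrays. No pair passed after adjustment. For Tef minus Hlf the difference was 1.09 (SE 0.48, exact permutation p = 0.143, adjusted 0.343), and for Dbp minus Hlf it was 0.96 (SE 1.35, exact permutation p = 0.571, adjusted 0.653).

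The spread between animals of a genotype set Dbp apart from most genes of the array. The residual SD of the fit was 2.0 on the log2 scale for Dbp, at percentile 99.9 of all 24512 fitted probes, whose median was 0.32. It was 0.94 for Per1 (percentile 96.3), 0.87 for Per2 (95.1) and 0.73 for Tef (91.6), and 0.36 for Clock (59.7), 0.25 for Cry2 (30.1) and 0.23 for Hlf (24.3). The residual SD pools both genotypes. For Dbp the SD was 2.50 in Rbpj+/+ and 0.77 in Rbpj-/- animals. In the same order it was 1.14 and 0.54 for Per1, 0.91 and 0.30 for Tef, and 0.88 and 0.85 for Per2.

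**Figure D3:**
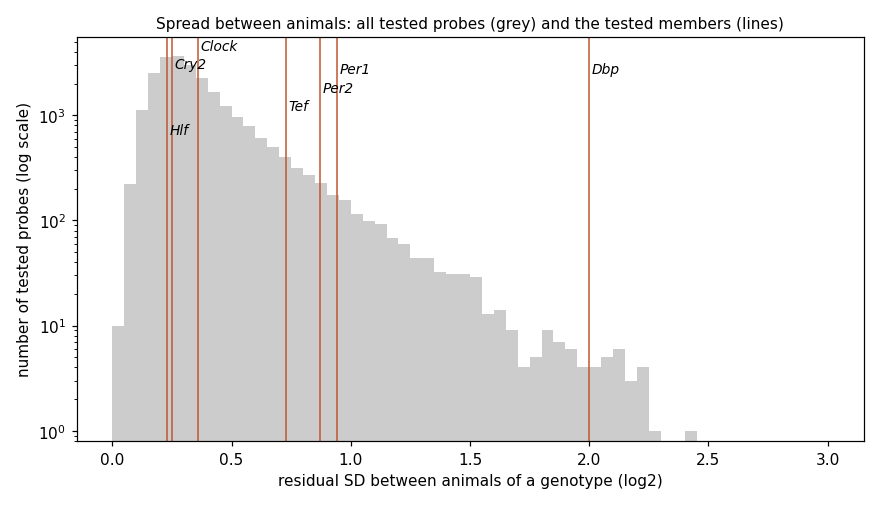
Number of tested probes (log scale) by residual SD on the log2 scale, in bins of equal width. The SD is that between animals of a genotype, pooled over both genotypes. Lines mark the 7 tested clock and PAR bZIP genes. Dbp lies at 2.0, Per1 at 0.94 and Hlf at 0.23, and the median of all probes is 0.32.

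Per1, Per2, Per3, Dbp and Tef shared the same order of the 4 Rbpj+/+ animals, with +/+_1156 highest, then +/+_1155, +/+_1024 and +/+_991. Animals +/+_1155 and +/+_1156 had the highest values for Per1, Per2, Per3, Cry2, Dbp and Tef, and the lowest for Clock, Npas2 and Cry1, of which Npas2 and Cry1 were not well above background in any of the 4. Hlf had +/+_1156 highest and +/+_1155 lowest. Arntl, the gene of the BMAL1 activator, had normalised log2 values of -0.25, -1.27, 1.03 and 2.16 in the 4 Rbpj+/+ animals, the reverse of the order of Per1 and Per2, and of -0.57, 0.42 and 1.34 in the 3 Rbpj-/- animals. Its residual SD of 1.31 lay at percentile 99.0, and its log2 fold change was -0.02 (SE 0.76, limma adjusted p = 0.987). Nfil3, a repressor that competes with the PAR bZIP factors for the D-box, had 3.43, 2.09, 3.35 and 4.37 in the controls and 3.21, 3.73 and 3.46 in Rbpj-/- animals. These orders were read from the values, the pairs of animals are no groups of the study, and no test was made. The share of all tested genes with the same split of these animals was not counted. The split is therefore not known to be particular to the clock genes. The genes of the Y chromosome Ddx3y and Eif2s3y were well above background on 7 of 7 arrays. Arrays +/+_1156 and -/-_N3 had brighter dim probes than the rest, with 61.8% and 64.9% of probes well above background against 41.1% to 47.7%.

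**Figure D4:**
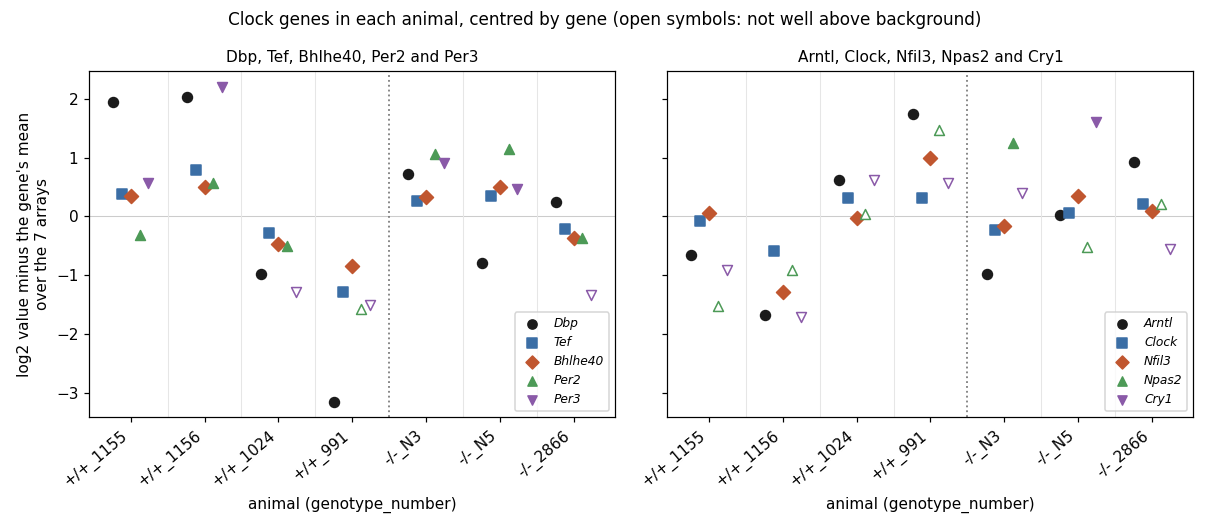
Normalised log2 value minus the gene's own mean over the 7 arrays, by animal, for Dbp, Tef, Bhlhe40, Per2 and Per3 (left) and Arntl, Clock, Nfil3, Npas2 and Cry1 (right), genes chosen for display after their values were seen; open symbols mark probes of the 10 genes that were not well above background. In Rbpj+/+ animal +/+_991 Dbp has its lowest value and Arntl its highest.

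The genes closest to Dbp in profile were ranked by the root mean square difference of log2 values, each centred on its mean over the 7 arrays, over 15944 tested genes outside the 10. The nearest was Ciart at 0.78, with normalised log2 values of -1.34, -0.09, -3.69 and -5.26 in the 4 Rbpj+/+ animals and of -0.16, -1.88 and -1.95 in the 3 Rbpj-/- animals, and it was well above background in 2 of 4 Rbpj+/+ animals. The transcript ENSMUST00000047978 (0.94), Gm11716 (0.97), the transcript ENSMUST00000119183 (1.03) and Gdap10 (1.03) followed, of which the first 3 were, like Ciart, well above background in 2 of 4 Rbpj+/+ animals, so that their nearness rests in part on values near the floor. Tef stood at 1.18, Per2 at 1.43 and Per1 at 1.56 by the same measure. Ciart had a residual SD of 1.91 and a log2 fold change of 1.26 (SE 1.10, limma adjusted p = 0.428). Its window holds the E-boxes printed above, and that of Dbp holds none.

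Of 20 other clock genes 18 were tested, and 2 were higher (Timeless and Csnk1e) and 2 lower (Rora and Cipc) in Rbpj-/- liver, with a median log2 fold change of 0.05. Among all tested genes 16.2% were higher and 17.3% lower. Timeless, which in mammals serves DNA replication, rose by 1.54 (SE 0.31, limma adjusted p = 0.010), beside 10 of 10 proliferation genes that rose. Top2a and Bub1, those with the largest fitted changes, were well above background in 1 of 4 controls each, and their changes went from 3.61 and 3.08 to 1.19 and 0.69 under normexp. Csnk1e, a kinase of the PER proteins, rose by 0.64 (SE 0.23, adjusted p = 0.075). Rora (-0.62), an activator of Arntl, and Cipc (-0.61), an inhibitor of CLOCK, fell and are named after their values were seen. Csnk1e did not pass under quantile normalization (limma adjusted p = 0.120), nor Rora under normexp background correction (adjusted p = 0.127). Nr1d1, the REV-ERB alpha repressor of Arntl, had normalised log2 values of 2.33, 1.88, 1.48 and 1.31 in the controls and of 0.12, -2.28 and 1.74 in the 3 Rbpj-/- animals. Animal -/-_N5 was far below the others, -/-_2866 lay among the controls, and the log2 fold change of -1.89 (SE 0.78) did not pass (limma adjusted p = 0.110). Nr1d1 passed under normexp with a log2 fold change of -1.15 (limma adjusted p = 0.094), and did not under quantile normalization (limma adjusted p = 0.145). Its paralog Nr1d2 had a log2 fold change of -0.44 (adjusted p = 0.330).

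Of 20 liver genes that the clock is known to drive, all tested, 9 were higher and 2 lower, where 16.2% and 17.3% of all tested genes were, with a median log2 fold change of 0.55. The 2 largest changes were those of Tfrc, the transferrin receptor (2.73, SE 0.46, limma adjusted p = 0.0051), and Noct, a cytoplasmic phosphatase named for its night peak (2.65, SE 0.56, adjusted p = 0.012). These genes have other regulators, and which of them acted was not tested.

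Genes of signals that are known to shift or induce clock genes were counted in the same way. Over all tested genes 16.2% were higher and 17.3% lower, and no such share is given under the other settings. Counts under different settings are therefore not compared with each other. Of 14 tested glucocorticoid-responsive genes 4 were higher and 1 lower, and 6 were higher under quantile normalization and 8 under normexp. The largest changes were in Lcn2 (5.28), an acute-phase protein, and Cebpd (2.51), a transcription factor of inflammation. Of 14 fasting-responsive genes 1 was higher and 4 lower, under quantile normalization 1 was higher and 2 lower, and under normexp 4 were higher and 4 lower. Fgf21, a hormone of fasting, had the largest fitted change (-5.21, and -3.36 under normexp). It was well above background in 4 of 4 controls and 2 of 3 Rbpj-/- animals. Its normalised log2 values were 5.54, 3.64, 0.51 and -0.22 in the controls and -3.24, -2.85 and -2.44 in Rbpj-/- animals. The residual SD of 2.10 lay at percentile 99.9, and the exact permutation test gave p = 0.057. Of 9 tested temperature-responsive genes 1 was higher and 1 lower, and under quantile normalization and under normexp 2 were higher and 0 lower. Hspa1a, the higher one, was well above background in 2 of 4 controls, and its log2 fold change of 1.05 became 0.013 under normexp (limma adjusted p = 0.948). Hspa8, the lower one (-0.54), did not pass under quantile normalization (limma adjusted p = 0.239) or normexp (0.145). The part of these signals in the values of Per1 was not tested.

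The liver of Rbpj-/- animals also differed in markers of other cell types. The shares over all tested genes were 16.2% higher and 17.3% lower. Of 10 macrophage markers 9 were higher and 0 lower (Marco 2.93, Lyz2 2.85), with a mean normalised log2 level of 2.61 to 3.13 in Rbpj+/+ and of 4.54 to 4.74 in Rbpj-/- animals. Stellate and fibroblast markers were higher for 7 of 10 and endothelial markers for 6 of 10, with 1 endothelial marker lower (Kdr, -1.19, named after its value was seen). Cholangiocyte markers were higher for 3 of 8 and lower for 0, and under normexp 3 were higher and 2 lower. Lymphocyte markers were lower for 5 of 7 and higher for 0. Ms4a1 had the largest fitted change (-3.34, and -0.96 under normexp) and was well above background in 1 of 3 Rbpj-/- animals. The part of these cell types in the values of the clock genes was not tested. Rbpj itself fell by 1.13 on the log2 scale (SE 0.24, limma adjusted p = 0.011), from 0.60 ± 0.34 (SD, n = 4) to -0.54 ± 0.22 (SD, n = 3). This probe lies 5408 bases into its annotated transcript, and whether that stretch lies within the deleted part is not given in the sources used here. A dimmer Rbpj probe, which the array annotates to chromosome 6, fell by 1.63 (SE 0.58, limma adjusted p = 0.072). Its genotypes overlapped, and it was well above background in 4 of 4 Rbpj+/+ and 2 of 3 Rbpj-/- animals. The Rbpj+/+ arrays filled row 1 of the slide and the Rbpj-/- arrays row 2, so row and genotype cannot be told apart.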

How the data were processed

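Whole liver RNA of 7 mice was hybridised to 1-colour Agilent arrays. The deposited intensity values are single-spot signals that the authors extracted with Feature Extraction 10.7.3.1, already corrected for background and not normalised between arrays. The authors' log2 series matrix served as an alternative. Its values correlate at r of 1.00 across probes with quantile-normalised, probe-centred values and at 0.776 to 0.876 with percentile-shifted ones, although a percentile shift is what the methods name, and its column medians are 0 on 6 arrays and -0.0039 on 1.

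Control probes and outlier spots were left out, log2 intensities were averaged per probe, and each array was centred on its 75th percentile. Probes detected on all arrays of at least 1 genotype entered the comparison by limma (version 3.58.1, R 4.3.3; Benjamini-Hochberg, adjusted p below 0.1), after a test on simulated data. A gene was read by its brightest tested probe, and limma gave no estimate for probes with a missing value. Single genes and 8 paralog pairs were also compared by exact permutation. Python 3.11.15, pandas 2.3.3 and matplotlib 3.10.9 made tables and figures. The number of arrays limits the precision.

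The 10 genes and all gene lists were chosen with earlier results of these data known. Genes of other lists are named for the 2 largest changes that passed, with Arntl, Nr1d1, Nr1d2, Nfil3, the 5 genes nearest Dbp, and Rbpj, unless said otherwise, and the results for some genes are not reported here. Alternatives were normexp (offset 50), quantile normalization, limma-trend, detection required on all 7 arrays, no dim-probe filter, a 75th percentile taken over always detected probes, array weights, the series matrix, probe means, a threshold of 0.05, each animal left out and, added after seeing the data, +/+_1156 and -/-_N3 both left out. Probe coordinates are mm9, as in the files.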

Additional observations from a re-analysis of the deposited data

How the results depend on the processing

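Of the 7 tested genes, 1 was higher and 1 lower under normexp, quantile normalization, the percentile of probes detected on all arrays, limma-trend, the series matrix, probe means, a threshold of 0.05 and without both +/+_1156 and -/-_N3. With detection required on all 7 arrays, 6 genes were tested, and 1 was higher and 1 lower. Without the filter for dim probes all 10 genes were tested, and 0 were higher and 0 lower, with Per1 at a limma adjusted p of 0.222 and Hlf at 0.154. With array weights 2 were higher, because Per2 passed (limma adjusted p = 0.050). With each animal left out in turn, between 0 and 2 were higher and 1 was lower each time, of 7 tested genes or, without -/-_2866, of 8. The log2 fold change of Per1 then lay between 1.59 and 2.42 and that of Hlf between -0.94 and -0.73. That of Per2 lay between 0.69 and 1.56. Clock, Dbp and Tef passed under no setting and changed sign under some. Clock ranged from -0.18 to 0.13 with an animal left out, was -0.13 with array weights, and was -0.058 without +/+_1156 and -/-_N3. Dbp ranged from -0.94 to 0.79 and Tef from -0.17 to 0.53 with an animal left out. With array weights the log2 fold change was 1.04 for Dbp and 0.67 for Tef. The causes were not tested. Per2, which was not well above background on 1 of 7 arrays, went from 1.07 to 0.30 under normexp, and Npas2, Per3 and Cry1 were too dim to test in the main setting. No paired analysis was possible because the groups share no replicate numbers.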
